A study of Mus musculus with 4 samples.

Results

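Genes of cholesterol and fatty acid synthesis were compared between untreated and genistein-exposed mouse embryonic fibroblasts (MEF cells). The set held 32 genes, taken by symbol from the 47937 genes of the deposited count table. They were 19 sterol genes of the SREBP2 branch, 6 lipogenic genes of the SREBP1 branch and 7 regulators and exporters. Total RNA was sequenced from 2 libraries of untreated wild-type MEF cells and from 2 libraries of MEF cells kept for 24 h in 50 µM genistein, a plant isoflavone. Both groups are labelled as the cell line MEF, and the genotype field of the exposed cells names only the treatment. All cells grew in high-glucose medium with 10% fetal bovine serum, so an outside source of lipoprotein was present in both groups. The treatment label calls the control cells untreated. In other assays of the study untreated cells received the solvent DMSO alone, and whether the sequenced control cells did is not given in the sources used here. The labels do not say that the libraries of a group came from separate cultures, so p-values measure the spread between these libraries only, which may be technical.

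Cells make cholesterol from acetyl-CoA through mevalonate, isoprenoid diphosphates, squalene and lanosterol, and they make long-chain fatty acids from the same precursor. Most of these enzymes are transcribed under the sterol regulatory element-binding proteins (SREBPs), of which SREBP2 favours sterol genes and SREBP1 favours lipogenic genes. When membranes are poor in sterol, the escort protein SCAP carries SREBP from the endoplasmic reticulum to the Golgi, where proteases release the active factor. INSIG proteins hold SCAP back when sterol is plentiful. Liver X receptors (LXRs) sense oxysterols and raise genes such as Abca1 that move cholesterol out of the cell.

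Promoter sequences are shown first, because the letters that SREBP and its partner NF-Y bind are the feature the sterol genes are known to share. RefSeq promoters on GRCm38.p6, 300 bases long with 250 bases before each start site, were at hand for 25 of the 32 genes, in 33 windows. The sterol regulatory element was searched on both strands as TCACNCCAC. It was found in 1 of the 15 sterol genes with a promoter, Hmgcs1, and in 1.39% of the 10022 tested genes with one. The Hmgcs1 element began 137 bases before the start site, on the plus strand of chr13:119690205-119690231 (GRCm38.p6). The element is in capitals, with 9 bases on each side:
Hmgcs1: gtcaccgtcTCACCCCACttcccaggt

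The NF-Y box, searched as CCAAT on both strands, was in the promoter of 14 of the 15 sterol genes (93.3%), of 2 of 4 lipogenic genes and of 4 of 6 regulators and exporters. Among all tested genes with a promoter, 43.3% held it. By window, which gives genes with several promoters no advantage, the shares were 14 of 18 sterol windows (77.8%) and 38.0% of the windows of tested genes. The CCAAT nearest the start site is shown for the 6 sterol genes with the largest fall in RNA among those with one in a promoter window. Fdps, which fell more, had no window. In Hmgcs1 the box shown lies just after the start site. Each line gives the minus strand of GRCm38.p6, 5′ to 3′, with the box in capitals:
Cyp51, chr5:4104711-4104737: gctgtccgccaCCAATctggtcctgag
Lss, chr10:76531532-76531558: tgcgagctcggCCAATcagagcatcac
Idi1, chr13:8885581-8885607: tcggtcgccagCCAATggcaccttgga
Mvd, chr8:122443434-122443460: cggccagcgggCCAATcatatggcagc
Hmgcs1, chr13:119690350-119690376: ggctacctctgCCAATcccgggactca
Msmo1, chr8:64733618-64733644: agtggggcggaCCAATtacgacaggcg

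The Sp1 box GGGCGG was in the promoter of 14 of 15 sterol genes, 1 of 4 lipogenic genes, 6 of 6 regulators and exporters and 69.4% of tested genes. By window it was in 83.3% of sterol windows and 62.7% of the windows of tested genes. The E-box form TCACGTGA was in none of the 25 genes and in 2.20% of tested genes. A sterol regulatory element with at most 1 letter different, a search chosen after the data were seen, was found for 7 of 15 sterol genes (46.7%), 1 of 4 lipogenic genes, 3 of 6 regulators and exporters and 28.7% of tested genes. A match is a run of letters and not a measured binding site, and no SREBP binding was measured here. The searches covered these letters within 300 bases only, so no match does not show that an element is absent.

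The libraries held from 28591958 to 31464284 counts, and 16240 genes passed the filter on low counts. Libraries of a group correlated at r = 0.995 over the kept genes and repeats (log2 of the normalised count plus 1), against 0.958 to 0.962 between groups. Over all tested genes the median log2 fold change was -0.03, and the central 90% lay between -1.11 and 1.43. Defining fibroblast genes were detected for 9 of 10 markers, with Thy1 at 0 in every library. Of the 9, 7 fell, among them Pdgfrb (log2 fold change -0.73), Twist1 (-0.64) and Col1a2 (-0.50), and Fn1 rose (0.20), with a median of -0.24. Marker sets of other cell types also moved with the exposure. The summed normalised count of 5 epithelial markers was 1163 and 1129.6 untreated and 251 and 231 exposed. It was carried by Krt8, Krt18 and Krt14, with Epcam at 0 and Cdh1 at 3.75 to 8.10 over the 4 libraries. For 6 macrophage markers the sum was 209.8 and 192 untreated and 546 and 569.9 exposed. It was carried by Cd68 and Csf1r, with Adgre1, Fcgr1 and Tyrobp at 0 and Ptprc at 0 to 1.01. For 5 endothelial markers the sum was 26.0 and 33.9 untreated and 99.4 and 99.2 exposed, mostly from Kdr, with Cdh5 at 0 to 1.0. Adipocyte markers summed to 50.9 and 46.6 untreated and 32.8 and 35.4 exposed, mostly from Cebpa, with Plin1, Cidec and Lep at 0. Of 5 hepatocyte markers, 4 were at 0. The part of these shifts in the results below was not tested. In bulk RNA, fewer cells of a kind and less RNA per cell cannot be told apart.

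RNA of nearly the whole set was lower after exposure to genistein. Of the 32 genes, 31 passed the filter, and the cholesterol exporter Abcg1 had 0 counts in every library, which allows up to 3 counts and covers counting error only. Of the 31, 28 fell and 3 rose at an adjusted p under 0.05 (edgeR's quasi-likelihood test, Benjamini-Hochberg adjustment over all kept genes and repeats). The 28 are 90.3% of the tested members, where 38.2% of all tested genes fell. The 3 are 9.68% of them, where 33.5% of all tested genes rose. The study's stricter thresholds are adjusted p under 0.05, absolute log2 fold change over 1 and mean normalised count over 100. With these, 13 of the 31 tested members fell and 1 rose. Of all tested genes 4.16% fell and 3.92% rose past them, but those include genes with means of 100 or less, which cannot pass. In no tested member did the groups overlap, but the share of all tested genes without overlap was not counted. With 2 libraries a group, genes that were not called can lack overlap too. Examples are Ggps1 (adjusted p = 0.54, edgeR) and Scarb1 (adjusted p = 0.26, edgeR). A normalised count here is the count scaled by TMM (trimmed mean of M-values) to a common library size, and each log2 fold change is genistein minus untreated. The smallest two-sided p of an exact permutation test would be 0.333 with 2 libraries a group, so the calls rest on the model fitted across all genes.

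**Figure D1:**
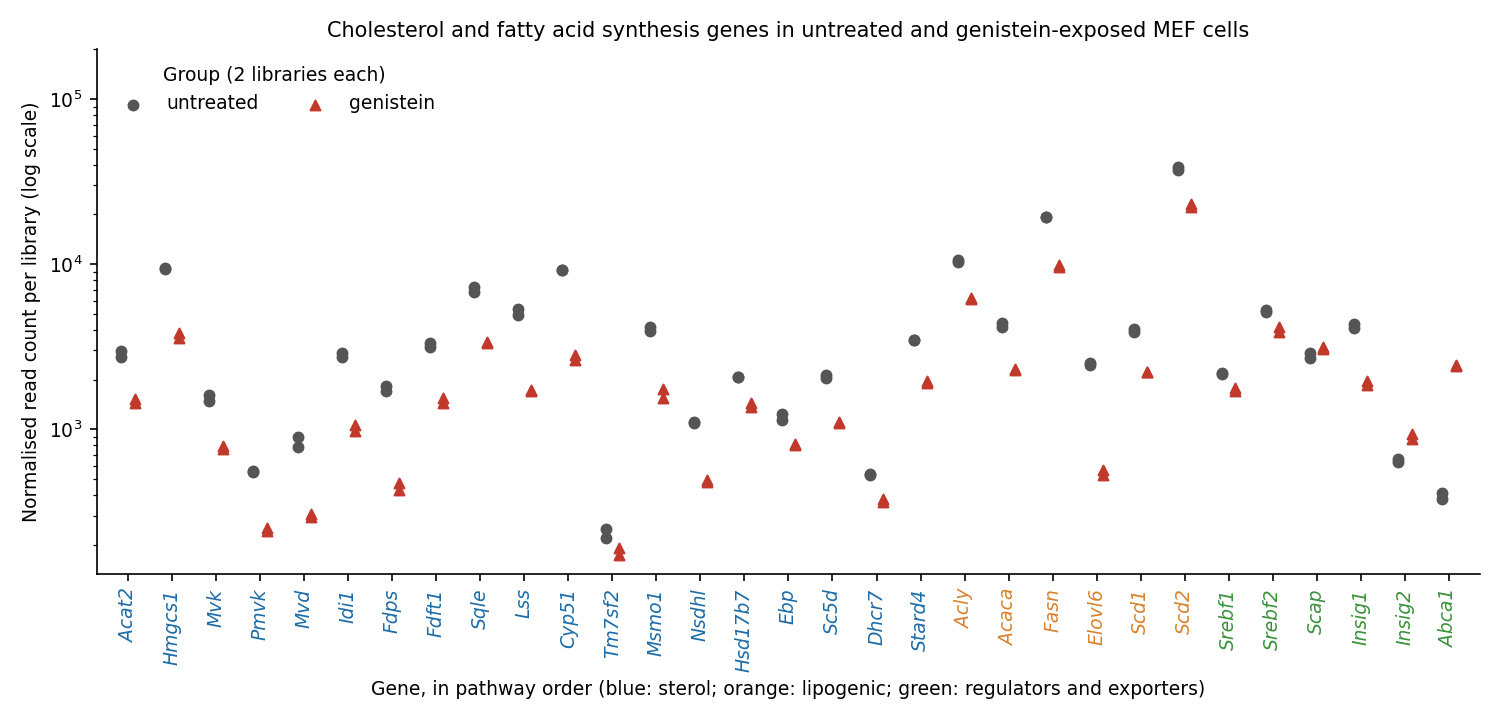
Normalised read count of each tested gene in each library on a log axis, with untreated libraries as grey circles and genistein-exposed libraries as red triangles (2 libraries each, no error bar). Every sterol and lipogenic gene has both red triangles below both grey circles, and the opposite order is seen for Scap, Insig2 and Abca1.

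The sterol genes fell together, from the entry into the mevalonate pathway to the last reductase. All 19 fell, where 38.2% of all tested genes fell. Past the stricter thresholds were 11 of them, against 4.16% of all tested genes. The median log2 fold change was -1.12, with a range from -1.98 (Fdps) to -0.36 (Tm7sf2). The 8 genes of the steps up to squalene had a median of -1.25, and the 10 genes of the steps after squalene one of -1.0.

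At the entry, Hmgcs1, which encodes HMG-CoA synthase, was counted at 9469 and 9407 in the untreated libraries and at 3588 and 3834 in the exposed ones. The exposed libraries were both far below the untreated ones, a log2 fold change of -1.35 (SE 0.04, adjusted p = 3.1e-14, edgeR). Hmgcs1 lies at chr13:119690379-119708260 on the plus strand (GRCm38, GENCODE), and 12.1% of its exon bases overlap the antisense transcript Gm48342. Acat2, the cytosolic thiolase that makes acetoacetyl-CoA, went from 2966 and 2754 to 1448 and 1516 normalised counts, a log2 fold change of -0.95.

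The mevalonate steps followed. Mvk (mevalonate kinase) had 1614 and 1485 normalised counts untreated and 759 and 797 exposed. Its log2 fold change of -0.996 left it just outside the stricter thresholds. Pmvk (phosphomevalonate kinase) fell from 559 and 548 to 244 and 253 normalised counts. Mvd, which decarboxylates mevalonate diphosphate, fell from 897 and 782 to 296 and 309. The log2 fold changes of Pmvk and Mvd were -1.16 and -1.48, and in both genes the exposed libraries lay close together and well under the untreated ones.

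The isoprenoid diphosphate steps held the largest fall among the sterol genes. Fdps, the synthase that makes farnesyl diphosphate, was counted at 1839 and 1696 untreated and at 427 and 469.7 exposed. Both exposed libraries lay well under both untreated ones, at 25.3% of the untreated level (log2 fold change -1.98, SE 0.06, adjusted p = 1.3e-13, edgeR), the 140th lowest log2 fold change of the 16240 tested genes. Of the Fdps exon bases (chr3:89093588-89101959, minus strand), 26.7% are shared on the same strand with the predicted gene Gm43738, so its count is less certain. Idi1, the isomerase that supplies dimethylallyl diphosphate, went from 2916 and 2753 to 979 and 1062 normalised counts (log2 fold change -1.48). Fdft1, squalene synthase, commits farnesyl diphosphate to sterols and went from 3335 and 3139 to 1538 and 1448 (log2 fold change -1.12). Its exons overlap those of Ctsb on the opposite strand over 18.3% of their bases.

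Of the enzymes that turn squalene into lanosterol, Sqle (squalene epoxidase) had 7235 and 6820.1 normalised counts untreated and 3359.8 and 3334 exposed, a log2 fold change of -1.07. Lss (lanosterol synthase) went from 5363 and 4939 to 1694 and 1729.8, a log2 fold change of -1.59 (SE 0.04). The fall of Lss was the larger of these, and neither gene had an exposed library near an untreated one.

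Cyp51, the lanosterol demethylase, had the largest fall after squalene. It was counted at 9224 and 9165 untreated and at 2635 and 2828 exposed, 29.7% of the untreated level. The log2 fold change was -1.75 (SE 0.04, adjusted p = 5.0e-16, edgeR). Cyp51 lies at chr5:4081145-4104746 on the minus strand, and 3.76% of its exon bases overlap Akap9 on the other strand.

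The later steps, which trim and rearrange the sterol ring, fell too. Msmo1, the methylsterol oxidase, went from 4187 and 3949 to 1552 and 1744 normalised counts (log2 fold change -1.31), and Nsdhl, the sterol dehydrogenase of the same demethylation, from 1113 and 1085 to 478 and 489.9 (-1.18). Sc5d, a sterol desaturase, fell by 0.93 on the log2 scale. Hsd17b7, a sterol ketoreductase, Ebp, a sterol isomerase, and Dhcr7, which reduces dehydrocholesterol to cholesterol, had log2 fold changes of -0.57, -0.55 and -0.52. Stard4, a cytosolic carrier of sterol rather than an enzyme, went from 3476 and 3466 to 1959.8 and 1919 normalised counts (log2 fold change -0.84).

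Tm7sf2, a sterol reductase that shares its step with another enzyme, changed least. Its normalised count was 251 and 219 untreated and 174 and 192 exposed, so the groups lay close together without overlap. The log2 fold change was -0.36 (SE 0.11, adjusted p = 0.0074, edgeR). The call was lost with DESeq2 (adjusted p = 0.075), without untreated replicate 1 (log2 fold change -0.26, adjusted p = 0.071) and without genistein replicate 1 (-0.29, adjusted p = 0.056), and 12.1% of its exon bases are shared with Vps51 on the same strand.

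**Figure D2:**
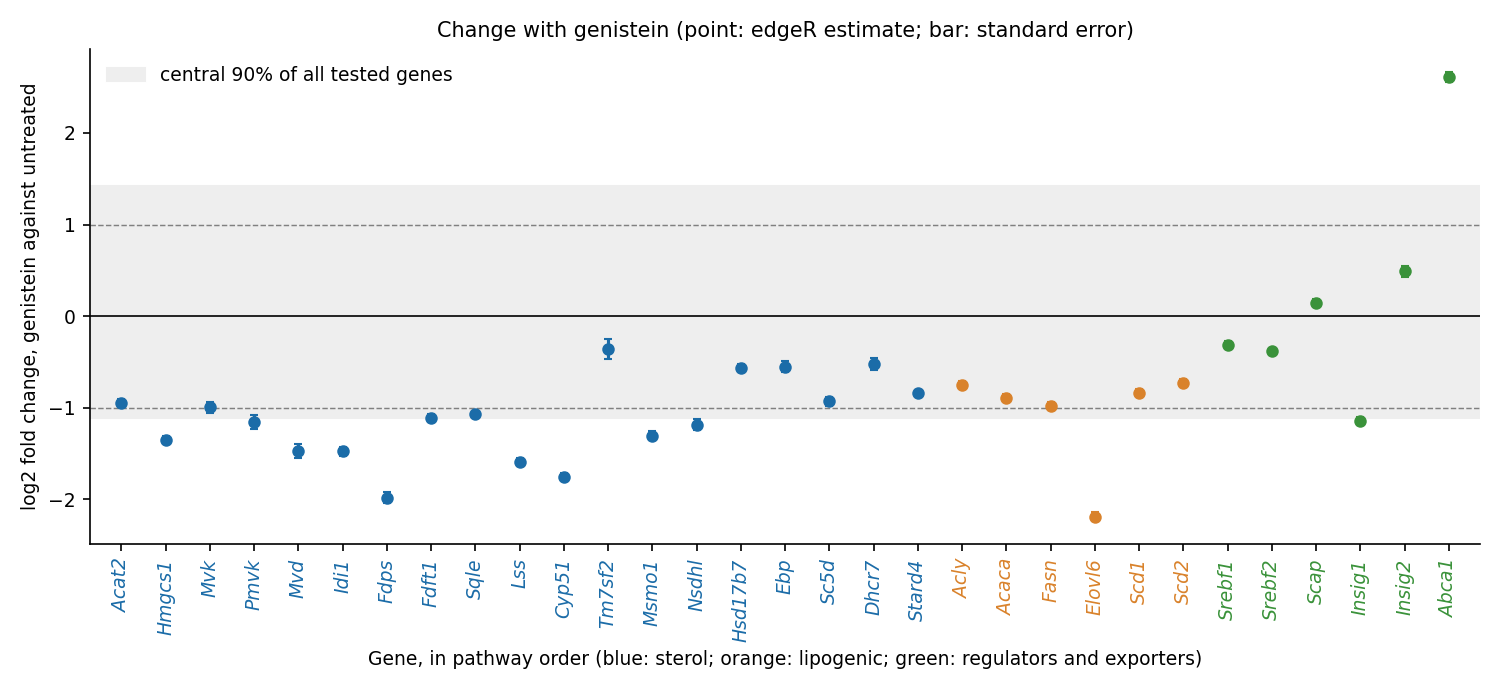
Log2 fold change (genistein against untreated, 2 libraries each) of each tested gene in pathway order, with its standard error as the bar, dashed lines at -1 and 1, and the central 90% of all tested genes in grey. The sterol genes range from -1.98 to -0.36, Elovl6 lies lowest at -2.19 and Abca1 highest at 2.61.

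The lipogenic genes also fell without exception, and 1 of them stood apart from the rest. All 6 fell, where 38.2% of all tested genes fell, with a median log2 fold change of -0.86. Elovl6 alone passed the stricter thresholds in the fit reported, where 4.16% of all tested genes fell past them. The other 5 lay in a narrow band from -0.98 to -0.73.

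Elovl6, the elongase that takes palmitate to stearate, was counted at 2527 and 2459 untreated and at 528 and 566 exposed. Both exposed libraries were at about the same low level, 21.9% of the untreated mean. The log2 fold change was -2.19 (SE 0.05, adjusted p = 2.9e-15, edgeR), the largest fall among the members and the 108th lowest log2 fold change of the 16240 tested genes. Elovl6 lies at chr3:129532355-129638495 on the plus strand.

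The enzymes that make palmitate fell by similar amounts. Acly, which releases acetyl-CoA from citrate in the cytosol, went from 10547 and 10246 to 6207 and 6159 normalised counts (log2 fold change -0.75). Acaca, acetyl-CoA carboxylase, went from 4183 and 4398 to 2295 and 2329 (-0.89). Fasn, fatty acid synthase, went from 19249 and 19325 to 9943 and 9605 (log2 fold change -0.98, SE 0.05, adjusted p = 1.5e-11, edgeR), which kept it just under the fold threshold. Fasn passed that threshold with no filter on low counts and without genistein replicate 1 (-1.01 and -1.001).

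The desaturases, which place a double bond in stearate and palmitate, were counted highest at Scd2. Scd2 had 38502 and 36903 normalised counts untreated and 22278 and 23203 exposed, a log2 fold change of -0.73. Scd1 had 4042 and 3872 untreated and 2227 and 2211 exposed, a log2 fold change of -0.83. Scd1 and Scd2 are close relatives, and how the counter split reads that match both was not tested.

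The regulators did not move as one. Of the 6 that were tested, Scap, Insig2 and Abca1 rose (50%, against 33.5% of all tested genes). Srebf1, Srebf2 and Insig1 fell (50%, against 38.2%). The median log2 fold change was -0.08. The genes of the factors themselves fell by small amounts. Srebf2 went from 5310.4 and 5116 to 4140 and 3856 normalised counts (log2 fold change -0.38, SE 0.04), and Srebf1 from 2204 and 2148 to 1783 and 1714 (-0.32, SE 0.04). Srebf1 RNA was counted per gene, so its isoforms cannot be told apart.

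Scap rose slightly, from 2881 and 2718 to 3153 and 3049 normalised counts (log2 fold change 0.15, SE 0.04, adjusted p = 0.0029, edgeR). With DESeq2 its adjusted p was 0.029. The transcript 5830462I19Rik on the opposite strand overlaps 13.2% of the Scap exon bases, so its count is less certain. The members that retain SCAP moved in opposite directions. Insig1, itself a known SREBP target, had 4354 and 4105 normalised counts untreated and 1860.4 and 1968 exposed. Its log2 fold change was -1.14 (SE 0.04, adjusted p = 5.9e-13, edgeR), close to the median of the sterol genes. Insig2, its paralog, had 635 and 659 untreated and 879 and 936 exposed. Its log2 fold change was 0.49 (SE 0.06, adjusted p = 1.8e-06, edgeR). Untreated libraries were the higher ones for Insig1 and the lower ones for Insig2.

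Abca1, the transporter that loads cholesterol onto apolipoprotein and a known LXR target, changed most of all members and in the other direction. It was counted at 414 and 378 in the untreated libraries and at 2415 and 2434 in the exposed ones (395.8 ± 25.2 and 2425 ± 13.3, SD, n = 2 each). All exposed values were several times the untreated ones, a 6.12-fold rise (log2 fold change 2.61, SE 0.06, adjusted p = 8.1e-16, edgeR). It had the 134th highest log2 fold change of the 16240 tested genes. Abca1 lies at chr4:53030787-53159895 on the minus strand.

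**Figure D3:**
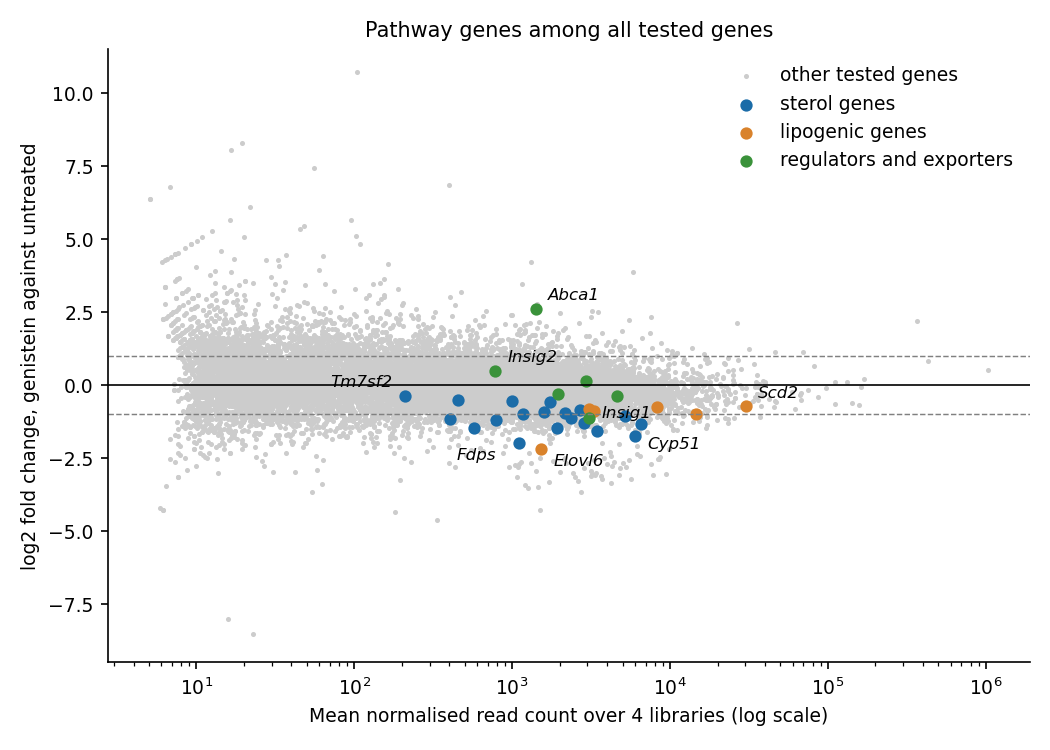
Log2 fold change (genistein against untreated) against mean normalised count over the 4 libraries (log axis) for all tested genes in grey and the members in colour, with dashed lines at -1 and 1. The members are well-counted genes, and most lie below 0, with Abca1 at 2.61.

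Levels between genes were compared as TPM, counts divided by exon length and scaled to a fixed total in each library. In untreated cells Scd2 had the highest TPM of the set (542 ± 14.6, SD, n = 2), followed by Cyp51 (164), Hmgcs1 (161), Acly (155), Fasn (138) and Insig1 (107). Tm7sf2 (4.19) and Abca1 (3.0) were the lowest of the detected genes. After exposure Scd2 was still the highest (359.8 ± 21.6, SD, n = 2), Cyp51 was at 53.5 and Elovl6 at 7.35, and Abca1 had come to 20.2. Abca1 thus moved from rank 31 to rank 21 of the 32 genes in TPM, and Elovl6 from rank 22 to rank 29. Summed TPM over the 19 sterol genes were 1083 and 1041 untreated and 486 and 527 exposed. With the longest transcript as the length, the untreated TPM of Hmgcs1 (185) lay above that of Cyp51 (159), and Msmo1 came to 93.1 in place of 52.0 and Dhcr7 to 12.9 in place of 7.21. TPM are relative to all gene counts of a library, so their differences between groups are not the same quantity as the log2 fold changes above.

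**Figure D4:**
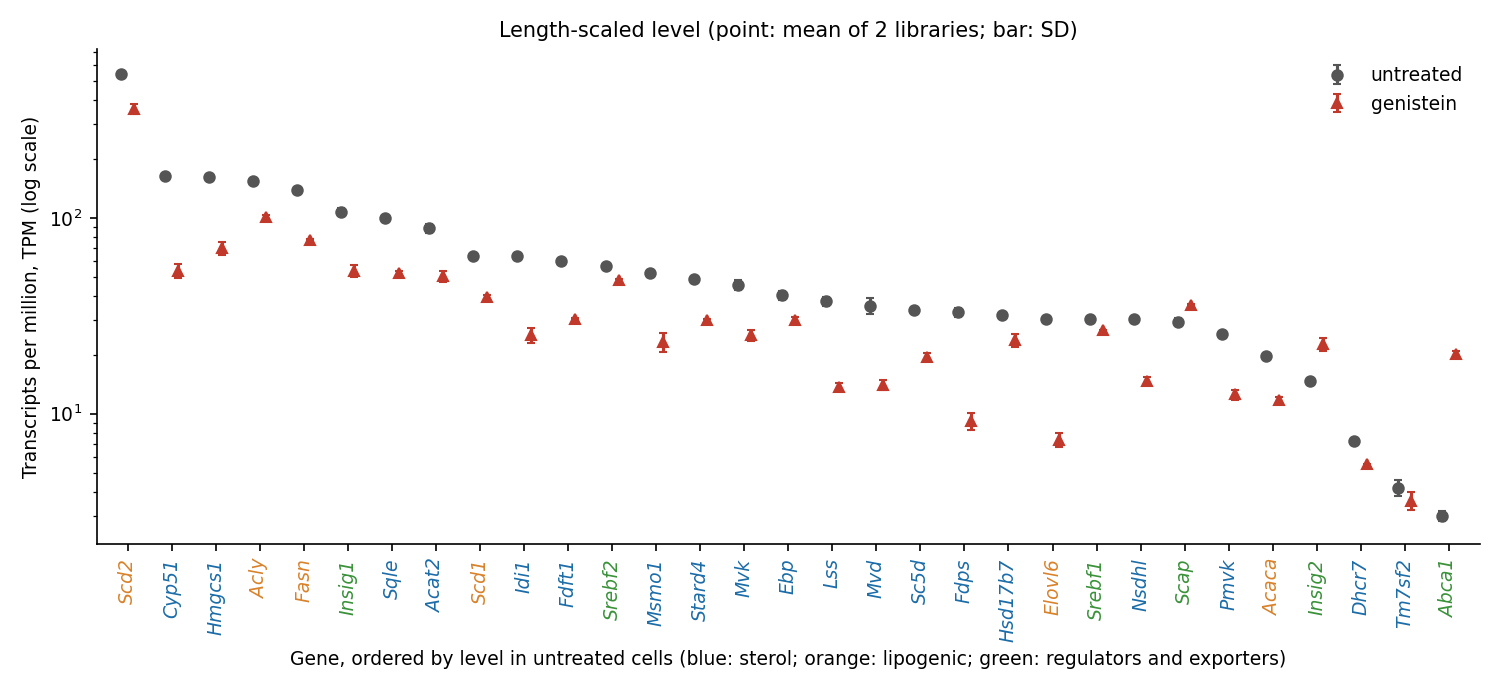
Length-scaled level (TPM, log axis) of each detected gene, ordered by the untreated level, as the mean of 2 libraries with its SD as the bar. Scd2 leads in both groups, and Abca1 is the lowest untreated gene at 3.0 TPM and reaches 20.2 TPM after exposure.

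Further genes of the same biology, in lists written with the earlier results known, did not share one direction. Among 7 genes of SREBP processing and turnover, 4 fell (57.1%, against 38.2% of all tested genes) and 2 rose (28.6%, against 33.5%), with a median log2 fold change of -0.10. Mbtps2, the protease that makes the second SREBP cleavage, had a log2 fold change of -0.52. The ubiquitin ligase gene Rnf139 was at -0.50, Erlin1 of the complex that removes membrane proteins at -0.39, and Fbxw7, which targets nuclear SREBP for degradation, at 0.30. Mbtps2 shares 28.4% of its exon bases with Yy2 on the same strand, and Rnf139 overlaps Tatdn1 on the opposite strand over 22.3%.

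Of 11 genes whose enzymes use the isoprenoids for other products, 9 fell (81.8%, against 38.2% of all tested genes) and none rose at an adjusted p under 0.05, with a median log2 fold change of -0.28. Ggps1 and Pggt1b, both with a log2 fold change of -0.04, were not called. The CAAX protease gene Rce1 was at -1.01, the ubiquinone side-chain synthases Pdss1 and Pdss2 at -0.88 and -0.52, and Fntb, a farnesyltransferase subunit, at -0.72.

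Of 21 other genes of fatty acid and glycerolipid synthesis, 19 were tested. Of these, 10 fell (52.6%, against 38.2% of all tested genes) and 7 rose (36.8%, against 33.5%), with a median log2 fold change of -0.16. Mid1ip1, an activator of acetyl-CoA carboxylase, was at -0.90, and Acsl3, which activates fatty acids, at -0.85. Acacb, the mitochondrial form of acetyl-CoA carboxylase, went from 54.9 and 62.5 to 207 and 180.2 normalised counts (log2 fold change 1.73, SE 0.15), opposite to Acaca. Lpin1, a phosphatidate phosphatase, rose from 324 and 297 to 705 and 682 (log2 fold change 1.16). An antisense transcript, Gm14493, overlaps 25.5% of the exon bases of Mid1ip1.

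Of 12 genes of LXR and oxysterol biology, 8 were tested. Of these, 2 rose (25%, against 33.5% of all tested genes) and 3 fell (37.5%, against 38.2%), with a median log2 fold change of -0.11, so both shares were near or below those of all genes. Mylip, a ubiquitin ligase for lipoprotein receptors and a known LXR target, rose from 112 and 114 to 216 and 197 normalised counts (log2 fold change 0.87, SE 0.12). Arl4c and Lpcat3, also known LXR targets, fell by 0.52 and 0.18 on the log2 scale, and Rxrb, a partner receptor gene, by 0.52. The LXR genes Nr1h2 (log2 fold change -0.14, adjusted p = 0.057, edgeR) and Nr1h3 (6.07 to 23.4 normalised counts over the 4 libraries) were not called.

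Of 13 genes of sterol uptake, transfer and storage, 9 rose (69.2%, against 33.5% of all tested genes) and 3 fell (23.1%, against 38.2%), with a median log2 fold change of 0.48. The lipoprotein receptors moved apart. Vldlr went from 506 and 564 to 1834 and 1840.2 normalised counts (log2 fold change 1.78, SE 0.06), and Lrp8 from 1436 and 1489.6 to 294 and 283 (-2.34, SE 0.06). Tmem97, a sterol-responsive membrane protein gene, fell by 1.48 on the log2 scale, and Nceh1, a cholesteryl ester hydrolase, rose with a log2 fold change of 0.90.

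**Figure D5:**
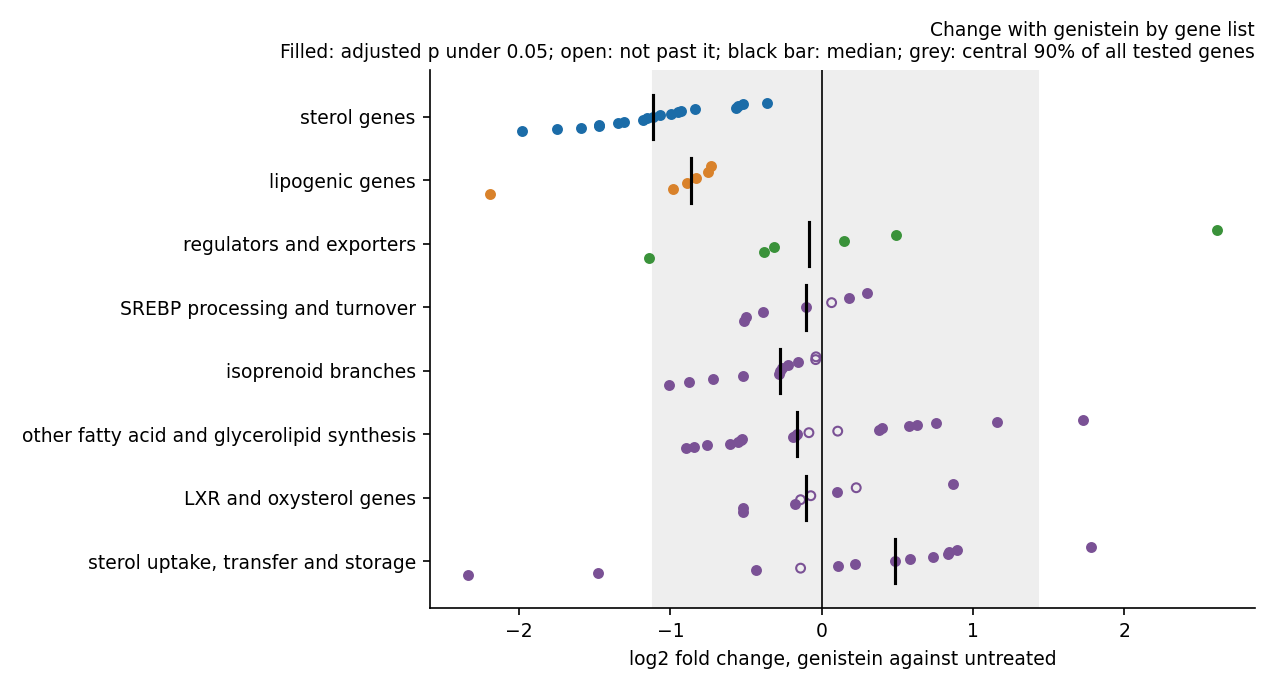
Log2 fold change (genistein against untreated) of each tested gene by list, filled where the adjusted p was under 0.05 and open otherwise, with the list's median as a black bar and the central 90% of all tested genes in grey. The sterol and lipogenic lists lie wholly below 0 with medians of -1.12 and -0.86, and the uptake, transfer and storage list has its median at 0.48.

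Exons of 11 members overlap another annotated gene: Hmgcs1, Idi1, Fdps, Fdft1, Lss, Cyp51, Tm7sf2, Elovl6, Scd2, Srebf1 and Scap. All overlaps given here are from a later GENCODE release than the one used for counting, so some may not have affected the counts. Without these members, 12 of 12 sterol genes and 4 of 4 lipogenic genes fell. Of the 5 remaining regulators and exporters, 2 fell, 2 rose and Abcg1 was not tested. Of all tested genes, 38.2% fell and 33.5% rose.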

How the data were processed

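Total RNA was depleted of ribosomal RNA and sequenced from paired ends with a stranded kit. After trimming (Trim Galore) and alignment to mm10 (STAR), the authors counted genes of Gencode M9 and repeats with TEtranscripts. They deposited raw whole-number counts, not normalised. The strand setting of the counter was not given in the sources used here. An entry naming no gene held 0.00208% to 0.00314% of a library and was left out.

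Genes and repeats were fitted together with edgeR 4.0.16 in R 4.3.3 after filterByExpr by group and TMM scaling. Groups were compared by edgeR's quasi-likelihood test, and p-values were adjusted by Benjamini-Hochberg over 16240 genes and 1118 repeats. A standard error is the log2 fold change divided by the square root of F. The test was checked on simulated counts. Chi-square over degrees of freedom was 4.71 between the untreated and 10.9 between the exposed libraries, so neither pair was 1 library deposited in duplicate. Thresholds were those of the study. Coordinates, exon overlaps and exon lengths came from GENCODE on GRCm38, the assembly of mm10, in a later release than the M9 used for counting. Whether each overlapping gene is also in M9 was not checked. TPM used the union of exons. Symbols matched 47224 genes, and 713 had none.

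The members, lists and tests were chosen with earlier results of these data known. All 32 members are reported. Of each further list, up to 4 called genes with the largest absolute change are named. CCAAT windows and the search with 1 letter different were added after the data were seen. Alternatives covered scaling, filtering, DESeq2 1.42.0, thresholds, exon length, leaving out each library and a replicate block.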

Additional observations from a re-analysis of the deposited data

How the results depend on the processing

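The number of members past the stricter thresholds was 11 to 15 lower and 1 higher over the alternatives. Across 10 alternative fits, 307 of 310 log2 fold changes of members kept their direction and their call, the 3 exceptions being those of Tm7sf2 given above, and none reversed. Counts of genes past the stricter thresholds became 1496 higher and 1025 lower with a mean normalised count over 10, and 408 higher and 437 lower when the test was made against the fold threshold. The median log2 fold change of sterol genes was -1.05 with library totals alone, -1.07 with genes fitted alone and -1.16 to -1.07 with one library left out. That of lipogenic genes was -0.87 with RLE size factors and with DESeq2, -0.79 with library totals alone, -0.82 with genes fitted alone, -0.89 with no filter on low counts and -0.87 to -0.86 with one library left out. That of regulators and exporters was -0.014 with library totals alone and -0.040 with genes fitted alone. Scaling moved the median of all tested genes from -0.03 to 0.04 with library totals alone. Without members whose exons overlap another gene, 12 sterol genes fell, because fewer genes were counted. The deviations of same-numbered libraries from their group means correlated at r = -0.03, a single value because deviations mirror each other in groups of 2, and the labels give no shared origin, so the numbers are not taken as pairs. With a replicate block 5336 genes were called higher and 6131 lower, 19 sterol genes fell and their median was -1.12. With 2 libraries a group, an SD rests on 1 difference, and Abcg1 was under the limit of detection.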
